A study of Homo sapiens with 4 samples.

Results

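The TGF-beta, activin and GDF ligand genes examined here are 10 genes, 9 of which encode secreted growth factors or their subunits. The last, FST, encodes a protein that binds some of them. The 10 genes are INHBE, INHBA, INHBB, TGFB1, TGFB2, TGFB3, GDF15, BMP4, GDF11 and FST, matched by symbol among the 58735 genes of the deposited table. INHBE was selected on its read counts, 1 in Bulk against 431 to 620 elsewhere. The remaining genes were taken because they belong to the same family or bind some of its members. Ratios to Bulk are therefore given as a description of the members.

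The study sequenced RNA from MDA-MB-231, a long-established cell line from a human breast tumour of the triple-negative kind, transduced with a doxycycline-inducible histone H2B-eGFP reporter (TetOn-H2BeGFP). All 4 groups carried the reporter, were given doxycycline at 5 μg/ml for 3 days, took up the Claret and Violet dyes and were then chased for 12 days, during which each division dilutes the labels. The top 1% of cells for Claret, for eGFP and for Violet were sorted as 3 slow-cycling groups, and Bulk cells were sorted without a fluorescence gate. Each group holds 1 library, so no difference given here has a replicate check, and whether the transduced cells were a clone is not given in the sources used here. Groups follow the sample titles. The treatment field names a different sort in every sample: it gives Claret+ for the library titled Bulk, eGFP+ for that titled Claret, Violet+ for that titled H2B-eGFP and un-gated for that titled Violet. The columns of the deposited values are named Bulk, Claret, EGFP_H2B and Violet, and these names match the titles. Every direction given here rests on the titles and column names.

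Libraries held 15508179 to 16976909 reads. MKI67, a marker of dividing cells, had 6778 reads in the library titled Bulk and 689 to 995 in the others. Markers of the line were present: VIM had 12507 to 18488 reads and CD44 had 5303 to 6357. The hormone receptor genes PGR and ESR1 had 0 and 3 to 7 reads, the epithelial gene CDH1 had 0 to 3, and the leukocyte gene PTPRC had 0 to 2. ERBB2 and EPCAM, also listed beforehand as low or absent in this line, were read in every library. ERBB2 had 1415 to 1542 reads and EPCAM had 28 to 61. Whether a higher level in a sorted pool reflects more cells with the transcript or more of it per cell cannot be told apart in such data.

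Ligands of this family are made as precursors that dimerise through cysteines in a carboxy-terminal domain and are cleaved by furin-like proteases. Most of them signal through pairs of type I and type II receptor kinases to SMAD transcription factors. GDF15 instead acts through GFRAL. Activins are dimers of the beta subunits encoded by INHBA, INHBB, INHBC and INHBE, and inhibins pair a beta subunit with the alpha subunit encoded by INHA. Follistatin, the product of FST, binds activins and keeps them from their receptors. TGF-beta can restrain epithelial growth and promote invasion in breast cancer, and GDF15 and INHBE are both known as targets of the integrated stress response, which acts through ATF4 and CHOP.

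The 4 beta-subunit genes are related closely enough that reads could in principle be misassigned, so the last 120 coding bases before the stop codon are shown for each, from GENCODE 29 (GRCh38), with the cysteine codons in capitals. The INHBE stretch lies at chr12:57456726-57456845 on the plus strand in coding exon 2 of 2 of INHBE-201, and that of INHBC at chr12:57449900-57450019 on the same strand. Those of INHBB and INHBA lie at chr2:120349752-120349871 (plus strand) and chr7:41689653-41689772 (minus strand).
INHBE: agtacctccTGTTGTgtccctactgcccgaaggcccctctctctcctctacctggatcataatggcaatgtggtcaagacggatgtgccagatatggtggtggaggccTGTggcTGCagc
INHBC: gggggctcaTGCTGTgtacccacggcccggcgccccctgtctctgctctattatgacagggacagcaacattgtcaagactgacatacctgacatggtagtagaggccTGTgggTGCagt
INHBB: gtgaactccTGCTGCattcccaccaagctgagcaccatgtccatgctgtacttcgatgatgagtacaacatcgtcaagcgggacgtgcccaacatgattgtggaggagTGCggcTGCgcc
INHBA: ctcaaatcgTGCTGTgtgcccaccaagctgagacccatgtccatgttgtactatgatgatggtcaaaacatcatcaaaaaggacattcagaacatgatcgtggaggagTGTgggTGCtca
All 4 have cysteine codons, TGT or TGC, at the same 4 positions. INHBE and INHBC shared 68.3% of these bases, INHBE and INHBB 61.7%, and INHBE and INHBA 55.8%. The longest run of bases that INHBE shared with INHBC here was 11, and no 31-base word of any INHBE transcript occurred in the transcripts of the other 3 genes. Of the 31-base words of INHBE, 2.65% occurred in transcripts of any other gene.

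INHBE (ENSG00000139269, chromosome 12, 57452323 to 57459280, plus strand) encodes the activin beta E subunit, a hepatokine gene best known from liver. It had read counts of 1 for Bulk, 620 for Claret, 615 for eGFP and 431 for Violet. As CPM, reads per 1e+06 of the TMM-scaled library, these are 0.0635, 36.5, 38.7 and 27.4. The slow-cycling libraries thus lay far above Bulk, and Violet was the lowest of them. With 1 read in Bulk the ratio itself is poorly bounded: as a plain log2 ratio of reads it was 9.17 in Claret with a 95% exact counting interval of 6.68 to 14.5, 9.25 in eGFP (6.77 to 14.6) and 8.75 in Violet (6.27 to 14.1). INHBE had the highest log2 ratio of all 14585 genes with a mean of at least 1 CPM in each of the 3 comparisons, on the scale with a prior count of 2 (7.61, 7.69 and 7.19). That rank rests on the Bulk count it was selected on and on the scale: INHBE ranked 2 in each comparison, behind SLC16A1, with a prior count of 0.5, and 4, 3 and 4 on log2(FPKM + 1), where CHAC1 ranked highest and the INHBE ratios were 3.68, 3.75 and 3.28. It passed that filter through the slow-cycling libraries alone.

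The other beta-subunit genes did not share this pattern. INHBB (ENSG00000163083, chromosome 2, 120346143 to 120351808) encodes the beta B subunit of activin B and had read counts of 376 for Bulk, 554 for Claret, 373 for eGFP and 641 for Violet. Violet and Claret were above Bulk, by log2 ratios of 0.77 (95% interval 0.58 to 0.96) and 0.45 (0.26 to 0.64), and for eGFP the interval included 0 (-0.02, -0.23 to 0.19). INHBA (ENSG00000122641, chromosome 7, 41667168 to 41705834), the beta A subunit of activin A, was far lower per length (0.667 FPKM in Bulk beside 7.55 for INHBB), with 86 reads for Bulk and 85 (Claret), 60 (eGFP) and 102 (Violet). Its interval left out 0 for eGFP alone, at -0.52 (-1.03 to -0.04). INHBC, the neighbouring beta C gene on chromosome 12, had 1, 4, 0 and 6 reads in Bulk, Claret, eGFP and Violet, at or near the floor of 3 reads that a count of 0 allows. INHA, the inhibin alpha subunit, had read counts of 11 for Bulk, 34 for Claret, 18 for eGFP and 30 for Violet, with log2 ratios of 1.37 (0.50 to 2.65), 0.61 (-0.46 to 1.93) and 1.30 (0.41 to 2.59).

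FPKM values, which correct for gene length and library size, allow the levels of the subunits to be set beside each other. In Bulk, INHBB was at 7.55 FPKM and made up 91.3% of the summed FPKM of the 4 beta-subunit genes, INHBA 8.06% and INHBE 0.258%. INHBE made up 52.6% of that sum for Claret, 62.3% for eGFP and 39.9% for Violet, at 12.1, 12.8 and 8.90 FPKM. The sum itself was 8.27 FPKM for Bulk, 23.0 for Claret, 20.5 for eGFP and 22.3 for Violet. FST (ENSG00000134363, chromosome 5, 53480409 to 53487134) did not follow that sum. It had read counts of 482 for Bulk, 428 for Claret, 496 for eGFP and 330 for Violet, log2 ratios of -0.28 (-0.47 to -0.09), 0.03 (-0.16 to 0.21) and -0.54 (-0.75 to -0.34). The FPKM of FST over the summed beta subunits was accordingly 1.26 for Bulk, 0.369 for Claret, 0.510 for eGFP and 0.310 for Violet. The sum holds INHBE, chosen for its 1 read in Bulk, so the lower ratios outside Bulk partly follow from that choice. In eGFP, FST and INHBB were each near their Bulk FPKM (10.5 beside 10.4 for FST, 7.29 beside 7.55 for INHBB). These are transcript levels, and neither dimers nor their binding by follistatin was measured.

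**Figure D1:**
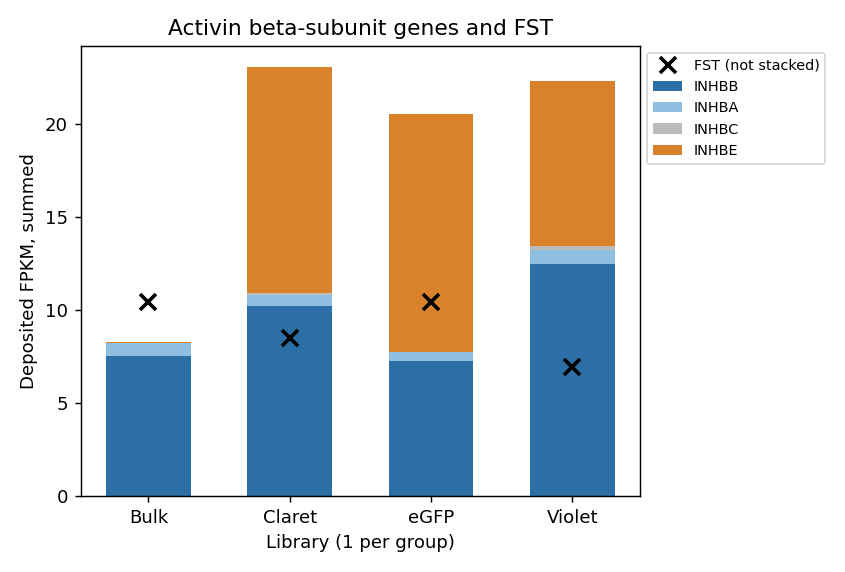
Deposited FPKM (vertical axis) of the 4 activin beta-subunit genes, stacked for each library (horizontal axis, 1 library per group), with FST as crosses that are not stacked. INHBB fills most of the Bulk bar, INHBE holds 39.9% to 62.3% of the slow-cycling bars, and FST lies above the bar in Bulk and within it in the others.

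GDF15 (ENSG00000130513, chromosome 19, 18374731 to 18389176), a stress-induced ligand that acts on the brain through GFRAL, was the other member far above Bulk. It had read counts of 227 for Bulk, 3672 for Claret, 2890 for eGFP and 3383 for Violet. The slow-cycling libraries lay close together and well above Bulk. The log2 ratios were 3.90 (3.71 to 4.11), 3.65 (3.46 to 3.86) and 3.89 (3.70 to 4.10), which placed GDF15 at ranks 25, 44 and 22 from the top of the 14585 genes (3, 5 and 2 on log2(FPKM + 1), and 47, 77 and 43 with a prior count of 0.5). GDF11 (ENSG00000135414, chromosome 12, 55743280 to 55757278), a close relative of myostatin, lay on the other side. It gave 396 reads for Bulk and 225 (Claret), 212 (eGFP) and 250 (Violet), log2 ratios of -0.92 (-1.17 to -0.68), -0.91 (-1.16 to -0.67) and -0.66 (-0.90 to -0.43). BMP4 (ENSG00000125378, chromosome 14, 53949736 to 53958761), a bone morphogenetic protein, gave 874 reads for Bulk and 810 (Claret), 628 (eGFP) and 800 (Violet). It was lowest in eGFP, at -0.49 (-0.64 to -0.34), and in Violet its interval included 0 (-0.13, -0.27 to 0.01).

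Among the TGF-beta isoforms, TGFB1 alone was above Bulk in every slow-cycling library with an interval clear of 0 and by more than a log2 ratio of 0.5. TGFB1 (ENSG00000105329, chromosome 19, 41301587 to 41353911) had read counts of 2135 for Bulk, 3638 for Claret, 4177 for eGFP and 3736 for Violet, log2 ratios of 0.66 (0.58 to 0.74), 0.95 (0.88 to 1.03) and 0.81 (0.73 to 0.89). With scaling factors from genes of at least 10 CPM, the eGFP ratio of TGFB1 was 1.03, past the threshold of 1. TGFB2 (ENSG00000092969, chromosome 1, 218346235 to 218444619) had 941, 1030, 970 and 1200 reads in Bulk, Claret, eGFP and Violet. Only in Violet did its interval leave out 0, at 0.35 (0.23 to 0.48). TGFB3 (ENSG00000119699, chromosome 14, 75958099 to 75982991) had 27, 24, 17 and 17 reads in that order, and its intervals, from -1.65 to 0.57 in all, show no difference detectable at this depth. TGFB1 made up 77.8% of the summed FPKM of the 3 isoforms in Bulk and 83.0% to 87.1% in the slow-cycling libraries.

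**Figure D2:**
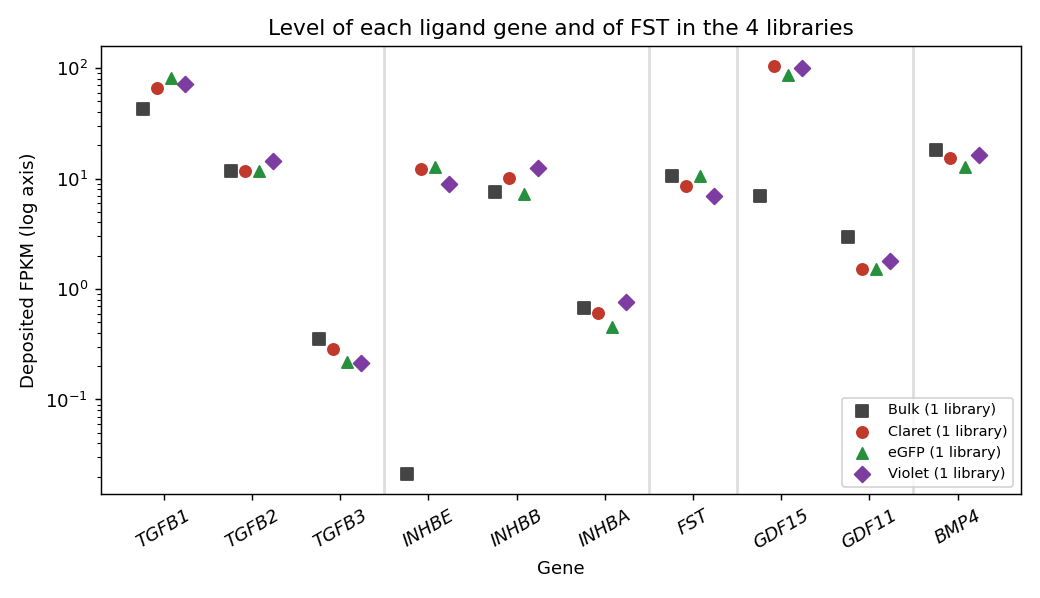
Deposited FPKM on a log axis (vertical) of the 10 genes (horizontal), 1 point per library. INHBE lies at 0.0213 FPKM in Bulk and 8.90 to 12.8 in the slow-cycling libraries, GDF15 at 6.998 and 86.7 to 104, and each of the other 8 genes spans less than 2-fold between libraries.

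In order of FPKM, TGFB1 stood first in Bulk (42.4), followed by BMP4 (18.2), TGFB2 (11.8), FST (10.4), INHBB (7.55), GDF15 (6.998), GDF11 (2.94), INHBA (0.667), TGFB3 (0.354) and INHBE (0.0213). GDF15 stood first in each slow-cycling library (104, 86.7 and 101), ahead of TGFB1 (66.2, 80.7 and 71.9), and INHBE stood at rank 4 for Claret, 3 for eGFP and 6 for Violet. Neighbours whose counting intervals overlapped were TGFB2 with FST and INHBB with GDF15 in Bulk, INHBE with TGFB2 in Claret, and BMP4 with TGFB2 in Violet. In eGFP the overlapping neighbours were INHBE with BMP4, BMP4 with TGFB2, TGFB2 with FST, and INHBA with TGFB3.

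Counted by a log2 ratio of at least 1, 2 of the 10 members, INHBE and GDF15, exceeded Bulk in each slow-cycling library, and 0 were lower. Of the 14585 genes, 11.3%, 12.0% and 11.7% were higher by this much in Claret, eGFP and Violet, and 6.72%, 7.64% and 6.92% were lower. Higher in all 3 libraries were 8.67% of the genes, and 4.93% were lower in all 3. No reading is made from the members' count, since INHBE was chosen for this difference. The median log2 ratio of the 10 members was -0.05 for Claret, 0.00 for eGFP and 0.30 for Violet, beside -0.01, -0.01 and 0.01 over all genes kept. Nearest to the threshold from below were TGFB1 in eGFP (0.95) and GDF11 in Claret (-0.92) and eGFP (-0.91), and nearest above it was GDF15 in eGFP (3.65). The 3 comparisons share the Bulk library, so a read count that is high or low there moves all of them.

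**Figure D3:**
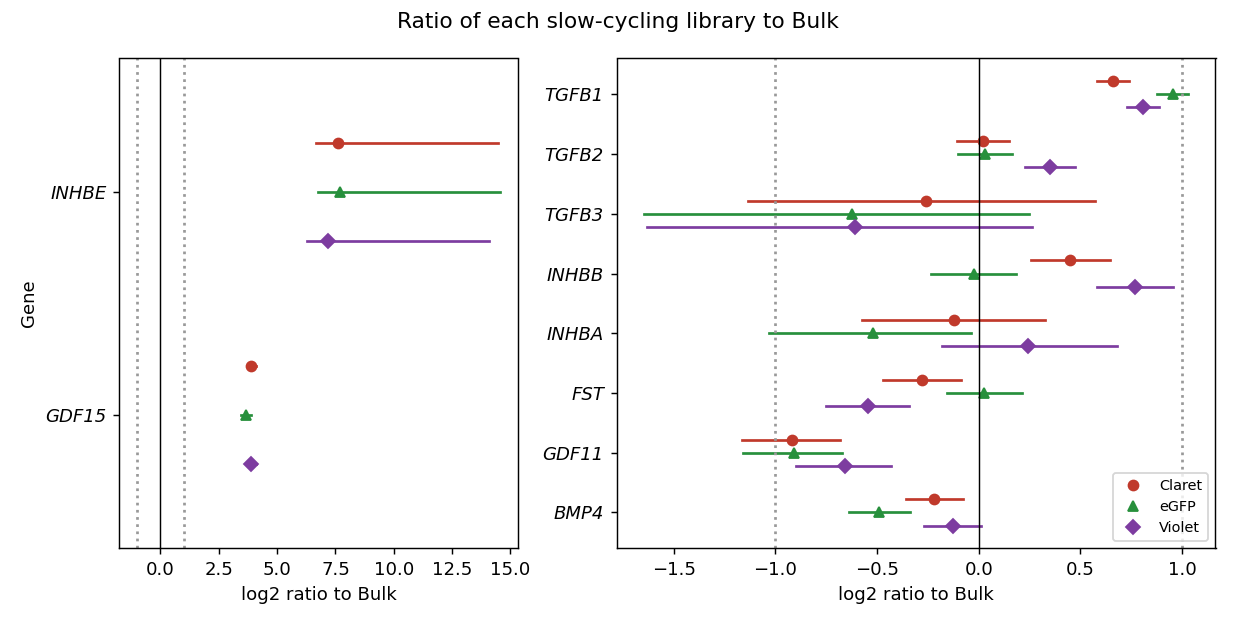
Log2 ratio to Bulk (horizontal axis) of each gene (vertical axis) in Claret, eGFP and Violet, with points on the scale with a prior count of 2 and bars for 95% exact counting intervals of the plain ratio; dotted lines mark a log2 ratio of 1 in size. INHBE and GDF15 lie beyond it in all 3 libraries, and the axes of the 2 panels differ.

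Comparisons between slow-cycling libraries do not use Bulk, the library by which INHBE was chosen. None of the 10 members differed by a log2 ratio of 1 in any of the 3 pairs, in which few genes did. Of all genes kept, 0.501% were higher and 0.644% lower in Claret than in eGFP, 0.329% and 0.727% in Claret than in Violet, and 0.377% and 0.912% in eGFP than in Violet. Smaller differences lay outside counting error. INHBE was lower in Violet than in Claret and eGFP, with log2 ratios of 0.41 (0.24 to 0.60) for Claret against Violet and 0.50 (0.32 to 0.68) for eGFP against Violet, and Claret against eGFP gave -0.08 (-0.25 to 0.08). INHBB was highest in Violet, the library where INHBE was lowest. It was higher in Violet than in eGFP, at -0.79 (-0.98 to -0.61) for eGFP against Violet, and Claret lay between them (0.47 against eGFP, 0.28 to 0.67; -0.32 against Violet, -0.49 to -0.15).

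FST was highest in eGFP among the slow-cycling libraries, at 0.57 (0.37 to 0.78) for eGFP against Violet and -0.31 (-0.50 to -0.12) for Claret against eGFP. INHBA was lower in eGFP than in Violet, at -0.76 (-1.26 to -0.31). BMP4 was lower in eGFP than in Claret and Violet, at 0.27 (0.12 to 0.42) for Claret against eGFP and -0.36 (-0.52 to -0.21) for eGFP against Violet. TGFB1 was highest in eGFP, by 0.29 over Claret (-0.29 for Claret against eGFP, -0.36 to -0.23) and by 0.15 over Violet (0.08 to 0.21). TGFB2 was higher in Violet than in both others. It gave -0.33 (-0.45 to -0.21) for Claret against Violet and -0.32 (-0.44 to -0.20) for eGFP against Violet. GDF15 in Claret and Violet differed by 0.01 (-0.06 to 0.08), and eGFP lay below Claret by 0.25 (0.18 to 0.32). For eGFP against Violet GDF15 gave -0.24 (-0.31 to -0.17). Intervals cover counting error only, and how much 2 cultures of 1 sort would differ was not measured.

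**Figure D4:**
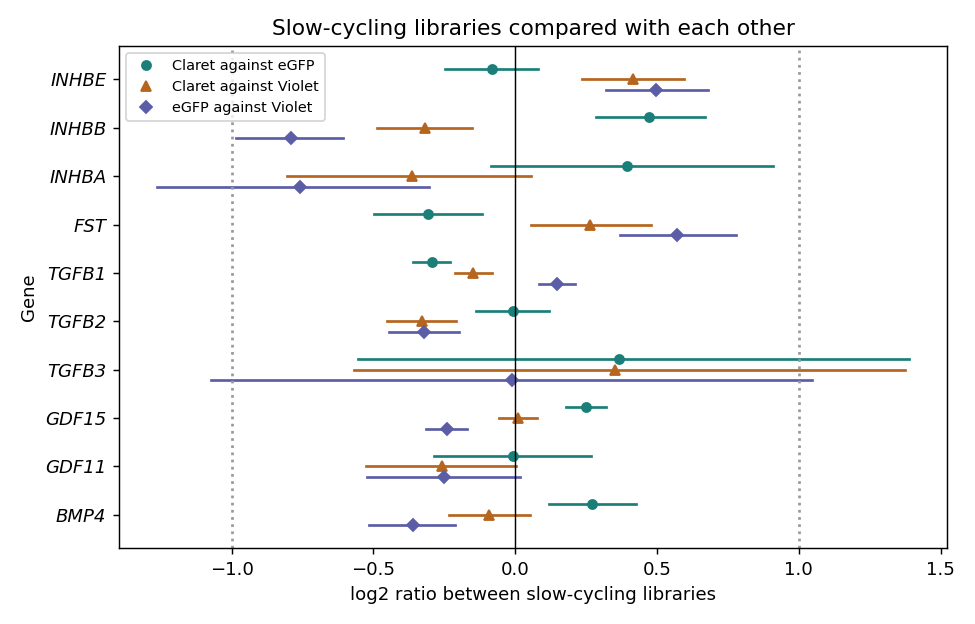
Log2 ratio (horizontal axis) of each gene (vertical axis) between pairs of slow-cycling libraries, with 95% exact counting intervals as bars; dotted lines mark a log2 ratio of 1 in size. For eGFP against Violet, INHBE, FST and TGFB1 lie to the right of 0 with intervals clear of it. INHBB, INHBA, BMP4, TGFB2 and GDF15 lie to the left in the same way.

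The genes whose pattern over the 4 libraries was most like that of INHBE, by Euclidean distance between centred log2 CPM among 12479 other protein-coding genes, were SLC16A1 (distance 0.23), CHAC1 (1.73) and MOV10L1 (2.05). SLC16A1, a lactate and pyruvate transporter gene, gave 0 reads for Bulk and 372 (Claret), 331 (eGFP) and 238 (Violet), at least 115-fold higher for Claret, 109-fold for eGFP and 79.4-fold for Violet against a floor of 3 reads in Bulk. CHAC1, which encodes a glutathione-degrading enzyme, gave 33 reads for Bulk and 1810 (Claret), 1652 (eGFP) and 1488 (Violet). For GDF15 the nearest genes were ADM2 (distance 0.19), a peptide hormone gene of the calcitonin family with 108, 1795, 1577 and 1540 reads in Bulk, Claret, eGFP and Violet, then ENTPD2 (0.22; 0, 26, 18 and 25 reads) and SPX (0.23; 8, 196, 144 and 168 reads). MOV10L1 had 0, 108, 56 and 75 reads in that order. All genes share the same 4 libraries, so these distances mostly rank genes by the size of their difference from Bulk. The distances use a prior count of 2. That prior largely sets the Bulk value of genes with 0 or few reads there, as for INHBE, SLC16A1, MOV10L1 and ENTPD2. Distances from INHBE also rest on the Bulk count on which it was selected.

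Within 60 kb of INHBE on chromosome 12 lie further genes that were above Bulk. DDIT3, which encodes CHOP, gave 101 reads for Bulk and 541 (Claret), 510 (eGFP) and 426 (Violet), log2 ratios of 2.29, 2.30 and 2.06. MARS, the methionyl-tRNA synthetase gene, had 2033, 5618, 4834 and 4530 reads in the same order, with log2 ratios of 1.36, 1.24 and 1.16. GLI1, the nearest gene downstream on the same strand and a Hedgehog pathway transcription factor, had 14, 31, 37 and 42 reads. R3HDM2 was at 0.35, 0.30 and 0.54, and ARHGAP9 was at -0.26, -1.09 and -0.44. Also counted in this window were MIR616, which lies within DDIT3 and had 2, 32, 34 and 20 reads, and RNU6-879P, AC126614.1, MIR6758 and AC022506.1, with 0 reads in every library. The count table cannot show whether reads of neighbouring genes join in 1 transcript.

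Other genes of the ATF4 and CHOP response were read beside INHBE and GDF15, from a list of 20 genes that holds neither. Higher than Bulk by a log2 ratio of at least 1 in all 3 slow-cycling libraries were 17 of the 20 (8.67% of all genes kept were), and 1, ATF5, was lower in all 3 (-1.53, -1.55 and -1.86; named after its values were seen). The list medians were 2.12 for Claret, 1.91 for eGFP and 2.02 for Violet, and were the same with FGF21, which had 0 reads in Bulk, set at its bound. This list was chosen with earlier results of these data known, so its count and medians are given as a description. NUPR1, a stress-induced chromatin protein gene, was higher by 4.19, 4.10 and 4.19, ASNS (asparagine synthetase) by 3.72, 3.85 and 3.63 and ATF3 by 3.21, 3.40 and 3.15. CHAC1, described above, was the highest of the list. Whether this response had a part in the levels of INHBE and GDF15 was not tested.

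The receptors of these ligands, like the genes kept as a whole, were mostly near their Bulk levels. Of 18 receptor and co-receptor genes, 14 had a mean of at least 1 CPM. Of all genes kept, 8.67% were higher than Bulk by a log2 ratio of at least 1 in all 3 libraries. Near that share, 1 of the 14 receptor genes was past this threshold in all 3 libraries. It was ACVRL1, a type I receptor for BMP9 and BMP10 known from endothelium, with 11 reads for Bulk and 76 (Claret), 78 (eGFP) and 82 (Violet) (2.48, 2.61 and 2.70). Among markers of endothelium, VWF had 4 reads for Bulk and between 19 and 24 elsewhere, PECAM1 had 54 to 87 in all libraries and CDH5 had 0 to 2; their part in the ACVRL1 result was not tested. Of the activin receptors, ACVR2A was at 0.18, 0.05 and 0.08, ACVR2B at 0.35, 0.48 and 0.45, ACVR1B at -0.09, 0.03 and -0.02 and ACVR1C at 0.10, 0.09 and 0.25. TGFBR2, the type II receptor of TGF-beta, was at 0.67, 0.57 and 0.70, whereas TGFBR1, its type I partner, was at -0.36, -0.47 and -0.30. The co-receptor TGFBR3 was at -0.11, -0.10 and -0.06, and BMPR2 at 0.06, 0.03 and 0.25. GFRAL, the receptor of GDF15, was without a read in the 4 libraries, where the floor of 3 reads is at most 0.191 CPM. The list median was -0.01, 0.04 and 0.03.

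Of the 24 ligand genes outside the members, 6 had a mean of at least 1 CPM: INHA, BMP2, BMP3, BMP6, BMP8B and AMH. BMP3 and BMP8B were past a log2 ratio of 1 in all 3 libraries, where 8.67% of all genes kept were higher. BMP8B gave 145 reads for Bulk and 344 (Claret), 358 (eGFP) and 336 (Violet) (1.13, 1.28 and 1.20), and 18.9% of its 31-base words occur in other genes, chiefly its copy BMP8A, so its count is uncertain. BMP3 had 16, 37, 37 and 35 reads (1.01, 1.11 and 1.04). The list median was 1.19, 0.96 and 1.12 (0.46, 0.24 and 0.51 on log2(FPKM + 1), and 0.66, 0.73 and 0.60 with a filter at 10 CPM), and genes with few reads in Bulk entered it through the slow-cycling libraries. Of the 13 SMAD and SMAD-regulator genes, all were kept. SMAD6, an inhibitory SMAD, was past the threshold in Claret (-1.14) and eGFP (-1.33) but not in Violet (-0.81). It was named after its values were seen. Of all genes kept, 6.72% were lower by this much in Claret and 7.64% in eGFP. The median of the 13 genes was -0.19, -0.04 and -0.03.

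Of 19 genes for latency and activation of TGF-beta, 14 were kept and 0 were past the threshold in all 3 libraries, with medians of 0.29, 0.42 and 0.45. Of 21 extracellular antagonist genes outside the members, 9 were kept and 0 were past it in all 3, with medians of -0.10, 0.00 and 0.07. Among all genes kept, 8.67% were higher and 4.93% lower in all 3, and no reading is made from these counts of 0. Of 17 TGF-beta response genes, 15 were kept, with medians of 0.24, 0.35 and 0.31.

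**Figure D5:**
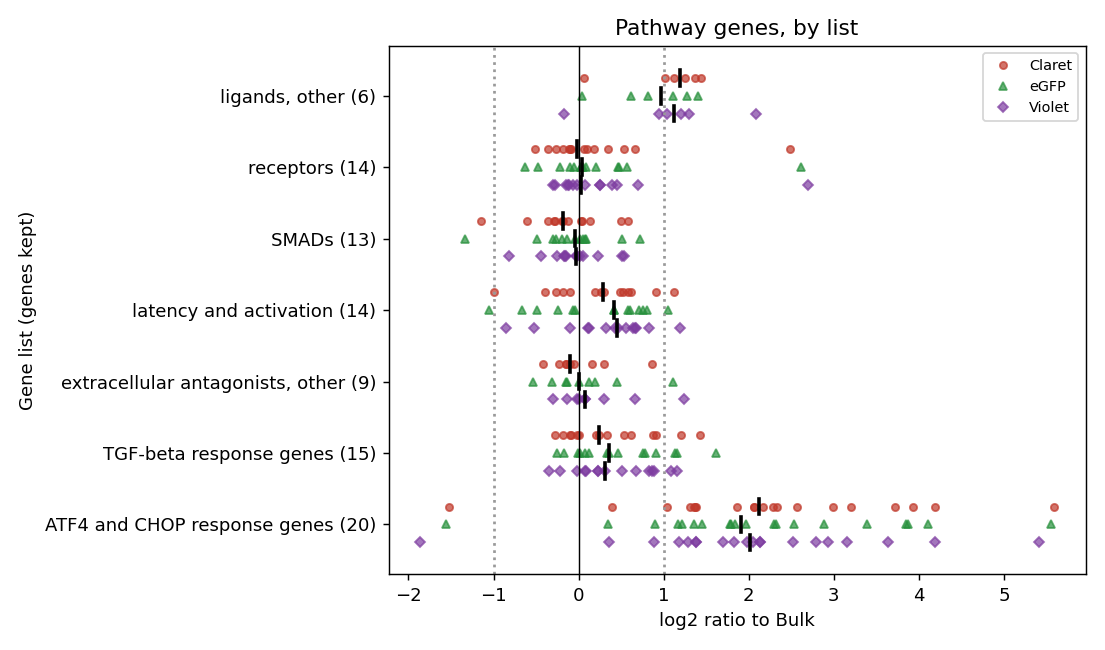
Log2 ratio to Bulk (horizontal axis) of each kept gene in 7 pathway lists (vertical axis, number of kept genes in parentheses), 1 row of points per slow-cycling library; black ticks are list medians and dotted lines mark a log2 ratio of 1 in size. The ATF4 and CHOP list has medians of 1.91 to 2.12, the receptor and SMAD lists have medians near 0, and ACVRL1 is the receptor that stands apart.

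Promoter sequences were searched because the title of the series names AP-1. RefSeq promoters (GRCh38.p14) were matched for 9 of the 10 members, with INHBE the exception, and gave 12 windows of 250 bases before a start. On both strands, the AP-1 motif TGANTCA occurred in 1 of the 12, that of FST, and in 6.57% of all 35116 windows of this length. The match in FST lies 160 bases before the start and downstream of the GENCODE 29 gene start (53480409). It is printed because it is the 1 AP-1 match among the members. The printed stretch of 27 bases, with the motif in capitals and flanking bases on each side, spans chr5:53480459-53480485 on the plus strand.
FST: aaatgtcaccTGATTCAcactgaactt
The C/EBP-ATF composite motif TGATGNAAN occurred in 0 of the 12 windows and in 3.13% of all. The cyclic-AMP response element occurred in 0 of the 12 and in 1.65% of all. The SMAD motif CAGACA occurred in 2 (TGFB2 and BMP4; 13.6% of all) and the E-box CACGTG in 3 (TGFB2, BMP4 and TGFB3; 6.34% of all); in TGFB2 these 2 matches overlap. A match describes letters and is not evidence of binding.

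Several members overlap other genes, which bears on their counts. TGFB1 is overlapped on the opposite strand by HNRNPUL1 (8045 reads in Bulk and 4784 to 5260 in the slow-cycling libraries), CCDC97, TMEM91 and AC011462.1, and 5.36% of its 31-base words occur in other genes. TGFB2-OT1 lies within TGFB2 on the same strand, shares 25.9% of the TGFB2 words and had 0 reads in every library. The counts do not show how reads that fall in both genes were assigned, so the TGFB2 level may miss some. TGFB3 is overlapped by IFT43 and TGFB3-AS1, GDF11 by SARNP and AC023055.1, INHBA by INHBA-AS1 and GDF15 by MIR3189. Whether counting used strand is not given in the sources used here, so reads of TGFB1, TGFB3, GDF11 and INHBA cannot be told apart from those of partners on the other strand. INHBE, INHBB, BMP4 and FST overlapped no other gene of the table.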

How the data were processed

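RNA of 4 sorted pools was extracted with TRIzol and made into libraries with a NEBNext Ultra kit, per the labels' protocols. The submitters' processing notes name HISAT2 2.0.5 and featureCounts 1.5.0-p3. The authors deposited whole-number read counts per gene, with no normalization, and FPKM computed from the same counts, per the values; start and end match GENCODE 29 for 58724 of 58735 genes. TMM factors (edgeR 4.0.16, R 4.3.3) scaled library sizes, and genes with a mean of at least 1 CPM were kept. Log2 ratios used a prior count of 2, with 95% intervals from the exact Clopper-Pearson limits of each pair of read counts. Reads carry no molecular identifiers, so intervals and floors cover counting error only. As each group is 1 library, edgeR's quasi-likelihood test could not be fitted and no p-value is given, and a log2 ratio of at least 1 was the threshold. Ratios and intervals were tested on data simulated with counting error alone. That test cannot show how well the intervals cover variation between cultures or sorts. Members and lists were chosen with earlier results of these data known. Named genes are the members, INHA, INHBC, 9 receptors, genes overlapping a member or within 60 kb of INHBE, the 3 nearest patterns, and at most 4 genes per list past the threshold in all 3 libraries; others are marked. Alternatives were total counts, DESeq2 1.42.0 size factors, a prior count of 0.5, log2(FPKM + 1), other filters and thresholds, an exact binomial test beside the fold, and groups from the treatment field. A result for a gene of the TGF-beta response list is not reported here.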

Additional observations from a re-analysis of the deposited data

How the results depend on the processing

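No paired analysis was possible because each group holds 1 library and no library carries a replicate number; for the same reason no library could be left out. With total counts, with DESeq2 size factors and with a prior count of 0.5, all 60 member ratios stayed within their 95% counting intervals, list medians moved by no more than the median interval half-width of their genes, and counts stayed within 1.5 times. With the prior of 0.5, 206 genes passed the threshold between Claret and eGFP, 193 between Claret and Violet, and 220 between eGFP and Violet. On log2(FPKM + 1), 9 of the 60 member ratios left their intervals: INHBE (3.68, 3.75 and 3.28 in Claret, eGFP and Violet), GDF15 (3.71, 3.45 and 3.67), GDF11 in Claret and in eGFP (-0.64 in each) and INHBA for eGFP against Violet (-0.28). The members past a log2 ratio of 1 were 2 against Bulk and 0 between slow-cycling libraries under the alternatives, apart from groups taken from the treatment field and from a filter at 10 CPM, which gave 3 for eGFP against Bulk (TGFB1 at 1.03).
Under the treatment field the library called Bulk is the one titled Violet, and Claret against Bulk gave -7.19 for INHBE and -3.89 for GDF15, and Violet against Bulk gave -0.24 for GDF15. Members past the threshold were then 0 for eGFP and 0 for Violet against Bulk, 2 for Claret against eGFP and 2 for Claret against Violet. List medians for Claret against Bulk were -1.12 for the other ligands, 0.0325 for SMADs, -0.45 for latency and activation, -0.31 for TGF-beta response and -2.02 for ATF4 and CHOP. For eGFP they were 0.0200 for the other ligands, -0.12 for latency, 0.0117 for TGF-beta response and 0.15 for ATF4 and CHOP, and for Violet 0.0701, -0.0525, 0.0841 and 0.0642 in that order. Genes past the threshold were 1010 higher and 1708 lower for Claret, 48 and 106 for eGFP, 55 and 133 for Violet, 2630 for Claret against eGFP and 2865 for Claret against Violet. In all 3 comparisons 0 of the other ligands, receptors, TGF-beta response genes and ATF4 and CHOP genes were then higher, 0 of the last were lower, and 1 antagonist was lower.
Counts of all genes followed the filter and the threshold. Against 1650 higher and 980 lower in Claret, 1750 and 1115 in eGFP, and 1708 and 1010 in Violet, the counts without a filter were 3521 and 2960, 4477 and 3239, and 4713 and 2771. With a filter at 10 CPM they were 721 and 556, 781 and 643, and 724 and 597, and at a log2 ratio of 1.5 they were 770 and 400, 838 and 459, and 811 and 403. On log2(FPKM + 1) they were 589 and 619, 633 and 725, and 533 higher for Violet. Between slow-cycling libraries the counts of 167 (Claret against eGFP), 154 (Claret against Violet) and 188 (eGFP against Violet) became 3243, 3274 and 4144 without a filter, 8, 11 and 7 at 10 CPM, 31, 32 and 35 at 1.5, and 24, 19 and 22 on log2(FPKM + 1). The exact binomial test left 104 of the 167.
On log2(FPKM + 1) the medians for latency and activation were 0.19, 0.23 and 0.24 in Claret, eGFP and Violet, those for ATF4 and CHOP were 1.84, 1.70 and 1.65, those for the other ligands were 0.46, 0.24 and 0.51, and 0 other ligands and 0 receptors were higher in all 3. Without a filter the latency median in Claret was 0.20, 6 other ligands were higher in all 3, as were 1 latency gene and 1 antagonist, and 1 antagonist was lower. At 10 CPM 1 other ligand and 0 receptors were higher, 0 ATF4 and CHOP genes were lower, the TGF-beta response median in Violet was 0.49, and the other-ligand medians were 0.66, 0.73 and 0.60. At a log2 ratio of 1.5, 0 other ligands and 0 TGF-beta response genes were higher in all 3. The cause of these moves was not tested beyond the filter or threshold itself. Depth limits INHBE in Bulk (1 read), INHBC and TGFB3 most.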
